A study of Mus musculus with 6 samples.

Results

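The Notch receptors *Notch1*, *Notch2* and *Notch3*, their ligands *Jag1*, *Jag2* and *Dll1*, the glycosyltransferase *Lfng*, the DNA-binding mediator *Rbpj* and the target genes *Hes1* and *Hey1* were followed in sorted cancer cells of mouse cutaneous squamous cell carcinoma (cSCC). These 10 genes were chosen by name, with earlier results of these data known. Every probe set that the platform annotation assigns to 1 of them alone was taken. This gave 14 of the 45141 probe sets of the array and 9 of the 17097 genes measured by a single-gene probe set. *Jag2* had no single-gene probe set and has no value here. EpCAM+ plastic cancer cells came from 3 independent moderately or poorly differentiated tumors (MD/PD-SCCs) and full epithelial cancer cells from 3 independent well differentiated tumors (WD-SCCs), with 1 Affymetrix array per tumor. Both populations were sorted as α6-integrin+CD45-EpCAM+ cells after removal of CD31+ endothelial cells. By the study's methods the tumor cells trace back to K14-HPV16 Tg/+ mice, in which the keratin 14 promoter drives viral oncogenes in basal keratinocytes, with spontaneous or DMBA/TPA-induced tumors, and MD/PD-SCCs arose when WD-SCCs were passed serially through immunodeficient hosts. The labels do not tie an array to a host, an age or a tumor lineage, so tumors of 1 lineage cannot be told from unrelated ones. EpCAM+ plastic cells pool cells of high and low EpCAM. A change in a sorted population can mean fewer cells of a type or less RNA per cell, and the arrays cannot separate these.

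Notch receptors are transmembrane proteins that are cut when a Jagged or Delta-like ligand on a neighbouring cell binds them. The freed intracellular domain enters the nucleus, joins RBPJ and Mastermind, and turns on target genes such as the *Hes* and *Hey* repressors. In mouse epidermis the pathway favours the exit of keratinocytes from the basal layer and their differentiation, and loss of *Notch1* in the skin promotes tumors.

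Values are log2 levels made with RMA, a method that corrects background, normalizes between arrays and gives 1 value per probe set, so a difference of 1 is a doubling. Differences are EpCAM+ plastic minus full epithelial, and a probe set passed the test at an adjusted p under 0.05 (limma, Benjamini-Hochberg over all 45141 probe sets). A level of 5.73, the 95th percentile of the 23 background probe sets of the array, served as background level, and a value below it can hide part of a difference. Pearson correlations between arrays were 0.979 to 0.990 within groups and 0.954 to 0.976 between them. Of the 7 epithelial and sort markers 0 passed (1 higher and 0 lower before adjustment by the brightest probe set), and the epithelial ones were high in both groups. The brighter *Epcam* probe set averaged 10.99 ± 0.19 in EpCAM+ plastic and 10.69 ± 0.26 in full epithelial cells (SD, n = 3 each), and *Ptprc*, which encodes CD45, averaged 2.94 in EpCAM+ plastic and 2.97 in full epithelial cells. *Krt5*, the basal keratin, averaged 12.52 in EpCAM+ plastic and 12.34 in full epithelial cells.

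Of the 14 probe sets, 2 rose (*Notch1*, *Rbpj*), 3 fell (2 of *Notch3*, 1 of *Hes1*) and 9 did not pass. That is 35.7% called, against 5.98% of all probe sets (4.11% higher and 1.87% lower) and 12.7% of the 16270 whose mean lay above the background level, as all 14 did. The called *Notch3* probe set 1421964_PM_at did so only through its full epithelial arrays, at a mean of 5.80 over all arrays. Of all called probe sets 68.8% were higher, a share of 56.5% with quantile normalization repeated and 43.1% with arrays centred on their 75th percentile. With an absolute difference of at least 1 asked for as well, 1 rose and 2 fell, against 1.58% and 0.844% of all probe sets (2.42% in either direction). The values of the 2 groups did not overlap for 10 of the 14, with 7 higher and 3 lower in EpCAM+ plastic cells. This held for 26.7% of all probe sets (13.5% higher and 13.2% lower) and for 38.1% of those above the background level. The median difference was 0.44 over the 14, against −0.03 over all probe sets and 0.08 over those above the background level.

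**Figure D1:**
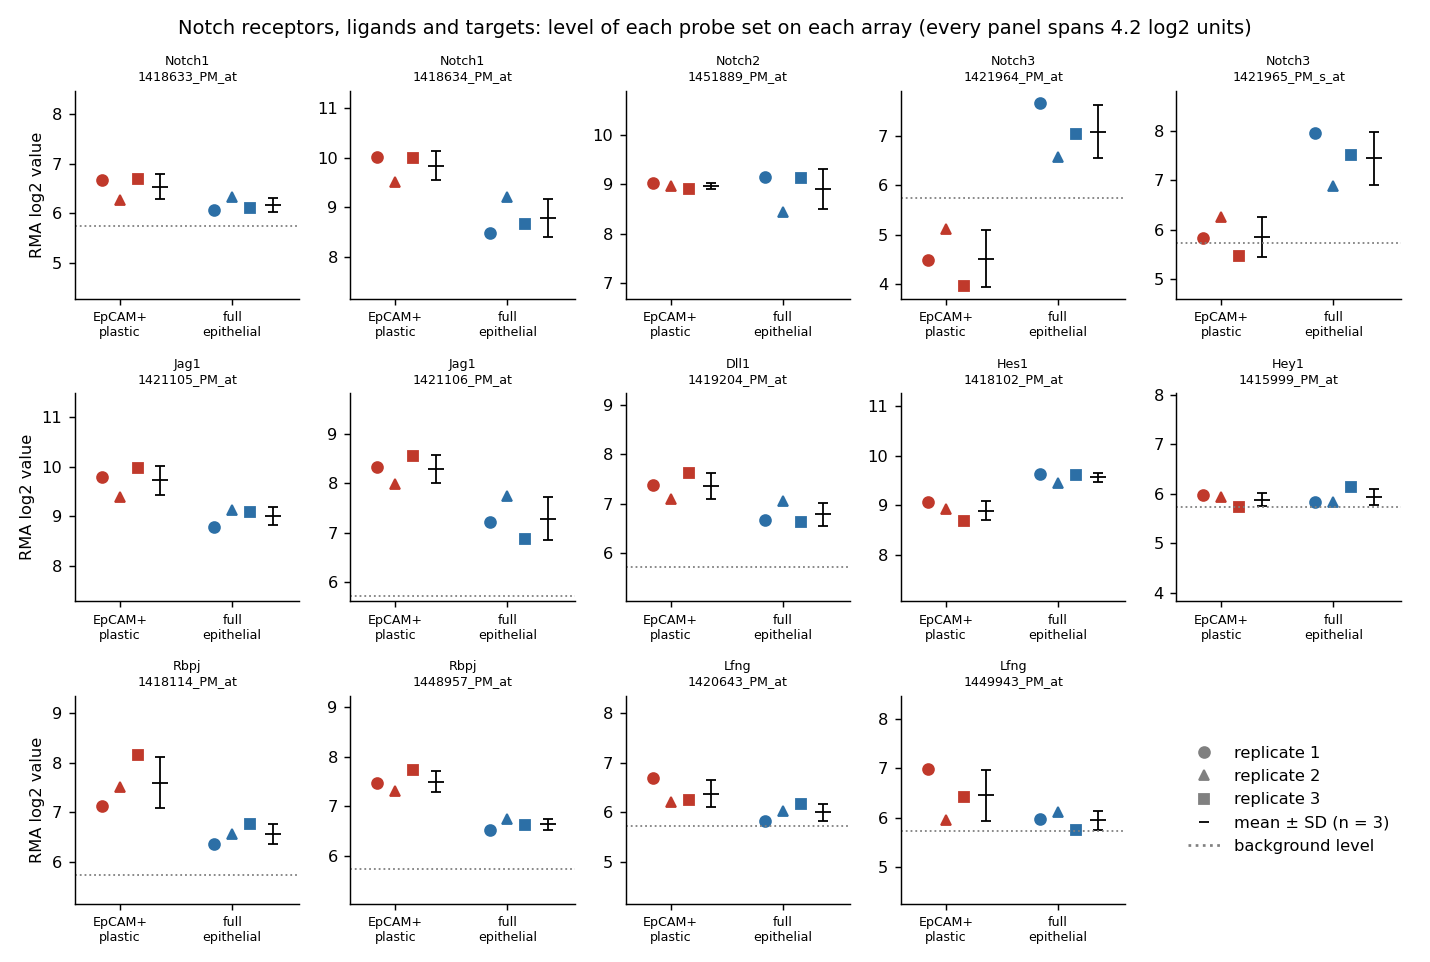
Normalized log2 value (vertical axis) of each member probe set on the 3 EpCAM+ plastic arrays (red) and the 3 full epithelial arrays (blue), with mean ± SD beside the points and the background level of 5.73 as a dotted line, over panels that span equal ranges at different levels. *Notch3* lies lower in EpCAM+ plastic cells with both probe sets, and *Notch1* (1418634_PM_at), *Jag1* and *Rbpj* lie higher with no overlap between the groups.

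Among the ligands, *Jag1*, which encodes Jagged 1, stood higher in EpCAM+ plastic cells with both of its probe sets, but neither passed. Probe set 1421106_PM_at read 8.33, 7.99 and 8.55 in EpCAM+ plastic replicates 1 to 3, against 7.22, 7.75 and 6.89 in full epithelial replicates 1 to 3. Its difference was 1.01 (standard error 0.24, 95% interval 0.43 to 1.58, adjusted p = 0.0633). The brighter 1421105_PM_at read 9.79, 9.40 and 9.98 in EpCAM+ plastic cells and 8.79, 9.13 and 9.08 in full epithelial cells, a difference of 0.72 (standard error 0.17, 95% interval 0.31 to 1.14, adjusted p = 0.0618). All 3 EpCAM+ plastic arrays lay above all 3 full epithelial ones with either probe set, and both intervals lay above 0 before adjustment. Over the 12 alternative settings, each probe set passed in 3 and missed the threshold in the others, with adjusted p of 0.0271 to 0.184 for 1421105_PM_at and 0.0350 to 0.180 for 1421106_PM_at. Both passed with dim probe sets left out and with arrays weighted by quality, 1421105_PM_at without EpCAM+ plastic replicate 2 (adjusted p = 0.0271) and 1421106_PM_at without full epithelial replicate 2 (adjusted p = 0.0390). The highest values of adjusted p came without EpCAM+ plastic replicate 1. In fits over genes, the mean of both probe sets passed (0.86, adjusted p = 0.0425) and the probe set of highest mean did not (adjusted p = 0.0524).

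*Dll1*, which encodes the ligand Delta-like 1, read 7.39, 7.09 and 7.62 in EpCAM+ plastic cells, against 6.67, 7.05 and 6.64 in full epithelial cells. The groups did not overlap, although EpCAM+ plastic replicate 2 lay only just above full epithelial replicate 2. The difference of 0.58 (standard error 0.17, 95% interval 0.17 to 0.99) did not pass (adjusted p = 0.111).

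Of the 3 receptors, *Notch3* fell, *Notch1* rose with 1 probe set and *Notch2* did not pass. *Notch3* fell in EpCAM+ plastic cells with both probe sets, the widest differences of the 14. Probe set 1421964_PM_at read 4.48, 5.11 and 3.96 in EpCAM+ plastic cells and 7.65, 6.57 and 7.02 in full epithelial cells. Each EpCAM+ plastic array was under the background level and each full epithelial array was above it. The measured difference was −2.56 (standard error 0.36, adjusted p = 0.0146), and against the background level the gene was at least 2.55-fold lower in EpCAM+ plastic cells. Probe set 1421965_PM_s_at, whose suffix marks probes shared by several transcripts, read 5.84, 6.26 and 5.47 in EpCAM+ plastic cells and 7.95, 6.88 and 7.51 in full epithelial cells, a difference of −1.59 (standard error 0.31, adjusted p = 0.0345). The groups did not overlap with either, and 2 of the 3 EpCAM+ plastic arrays were above the background level with the second. Without EpCAM+ plastic replicate 1 neither passed (−2.55, adjusted p = 0.0633, and −1.58, adjusted p = 0.115). The second also missed the threshold without EpCAM+ plastic replicate 3 (−1.40, adjusted p = 0.0982), full epithelial replicate 1 (−1.34, adjusted p = 0.0853) or full epithelial replicate 3 (−1.56, adjusted p = 0.0969).

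*Notch3* is also a receptor of pericytes and vascular smooth muscle, so the markers of those cells were read beside it. Of 9 measured pericyte and smooth muscle markers of 12 listed, *Acta2*, smooth muscle actin, rose by 1.19 (adjusted p = 0.0272), with 1 of 3 full epithelial arrays above the background level, and 8 did not pass. The other *Acta2* probe set lay below the background level on every array and did not pass (difference −0.08, adjusted p = 0.821). Before adjustment, 1 of the 9 was higher and 1 lower by the brightest probe set. Their summed linear level ran from 274 to 339 in EpCAM+ plastic arrays and from 256 to 283 in full epithelial arrays. The *Acta2* call was lost without EpCAM+ plastic replicate 1 or 2 or full epithelial replicate 1 or 2 (adjusted p = 0.0515 to 0.0963). *Acta2* was the only one of the 9 above the background level in EpCAM+ plastic cells, and 0 were in full epithelial cells. *Pdgfrb*, the platelet-derived growth factor receptor of pericytes, averaged 5.56 in EpCAM+ plastic and 5.67 in full epithelial cells. None of 14 endothelial markers averaged above the background level in either group, and 0 were higher and 3 lower before adjustment by the brightest probe set, with summed levels of 293 to 337 in EpCAM+ plastic and 336 to 384 in full epithelial arrays. *Egfl7*, one of the 14, passed as lower at levels under the background level (adjusted p = 0.0417), and lost its call when any array but full epithelial replicate 2 was left out (0.0722 to 0.139). *Tie1* and *Sox18*, also under the background level on average, stood lower without overlap but did not pass (adjusted p = 0.108 and 0.0859). Of 11 fibroblast and 13 leukocyte markers 0 passed (0 higher, and 1 and 3 lower, before adjustment by the brightest probe set). The fibroblast sum ran from 871 to 1471 in EpCAM+ plastic and from 1140 to 1270 in full epithelial arrays, and the leukocyte sum from 545 to 726 in EpCAM+ plastic and from 722 to 1031 in full epithelial arrays. The part of other cells in the *Notch3* difference was not tested.

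*Notch1*, a Notch receptor of keratinocytes, rose with 1 of 2 probe sets. The bright 1418634_PM_at read 10.02, 9.50 and 9.99 in EpCAM+ plastic cells, against 8.48, 9.21 and 8.66 in full epithelial cells. All EpCAM+ plastic arrays lay above all full epithelial arrays, with a difference of 1.06 (standard error 0.23, adjusted p = 0.0452). The dimmer 1418633_PM_at read 6.67, 6.25 and 6.68 in EpCAM+ plastic cells and 6.05, 6.33 and 6.11 in full epithelial cells, where the second replicates overlap, and its difference of 0.37 (95% interval 0.02 to 0.72) did not pass (adjusted p = 0.211). Fitted over genes, the probe set of highest mean passed (adjusted p = 0.0371) and the mean of both probe sets did not (0.71, adjusted p = 0.0649). The call on the bright probe set stood close to the threshold. It was lost without EpCAM+ plastic replicate 1 (0.97, adjusted p = 0.147) or 3 (0.98, adjusted p = 0.134) and without full epithelial replicate 1 (0.91, adjusted p = 0.120) or 3 (1.00, adjusted p = 0.123), and after either rescaling of the arrays (adjusted p = 0.0598 with quantile normalization repeated and 0.0623 with arrays centred on their 75th percentile).

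*Notch2*, a second receptor of the epidermis, read 9.03, 8.97 and 8.90 in EpCAM+ plastic cells and 9.14, 8.43 and 9.12 in full epithelial cells. The 3 EpCAM+ plastic arrays lay within the range of the full epithelial ones, and the difference was 0.07 (95% interval −0.40 to 0.54, adjusted p = 0.878). Its sign turned with the 75th percentile centring and without full epithelial replicate 2.

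**Figure D2:**
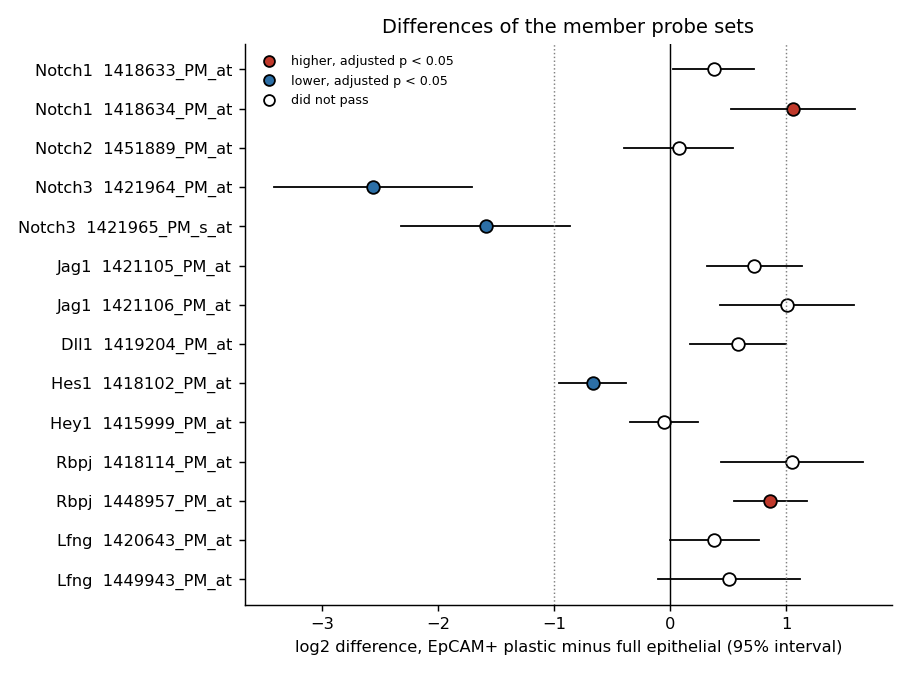
Log2 difference (EpCAM+ plastic minus full epithelial, horizontal axis) of each member probe set with its unadjusted 95% interval, filled where the adjusted p was under 0.05, with dotted lines at −1 and 1. *Notch3* and *Hes1* stand left of 0 and *Notch1*, *Jag1*, *Dll1* and *Rbpj* right of it, while the intervals of *Notch2*, *Hey1* and both *Lfng* probe sets span 0.

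*Lfng* encodes lunatic fringe, an enzyme that adds sugars to Notch and so alters which ligands the receptor answers to. Its 2 probe sets differed by 0.38 (1420643_PM_at, adjusted p = 0.239) and 0.50 (1449943_PM_at, adjusted p = 0.324), and neither passed. The first read 6.69, 6.20 and 6.25 in EpCAM+ plastic cells and 5.82, 6.02 and 6.16 in full epithelial cells, with no overlap. The second read 6.98, 5.95 and 6.43 in EpCAM+ plastic cells and 5.98, 6.12 and 5.75 in full epithelial cells, with overlap at EpCAM+ plastic replicate 2. Both lay close to the background level.

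*Rbpj*, the DNA-binding partner through which the Notch intracellular domain acts and which represses the same genes in its absence, rose with 1 of 2 probe sets. Probe set 1448957_PM_at read 7.46, 7.30 and 7.73 in EpCAM+ plastic cells, against 6.53, 6.75 and 6.63 in full epithelial cells. Its difference was 0.86 (standard error 0.13, adjusted p = 0.0191), and the lowest EpCAM+ plastic array was above the highest full epithelial one. Probe set 1418114_PM_at read 7.13, 7.52 and 8.15 in EpCAM+ plastic cells and 6.35, 6.55 and 6.76 in full epithelial cells, a larger difference of 1.05 with more spread (standard error 0.26) that did not pass (adjusted p = 0.0671). The call was lost without EpCAM+ plastic replicate 1 (0.88, adjusted p = 0.0711), full epithelial replicate 1 (0.81, adjusted p = 0.0641) or full epithelial replicate 3 (0.86, adjusted p = 0.0559). The RefSeq gene table lists 3 *Rbpj* pseudogenes, and whether the probes also match them was not tested.

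The targets are shown by *Hes1* and *Hey1*. *Hes1*, a repressor of the basic helix-loop-helix family and a direct Notch target, fell. It read 9.06, 8.93 and 8.68 in EpCAM+ plastic cells, against 9.64, 9.45 and 9.60 in full epithelial cells, so that the groups stood apart with little spread. The difference was −0.67 (standard error 0.12, adjusted p = 0.0300). Leaving out any 1 of the 6 arrays moved the adjusted p to between 0.0522 (without EpCAM+ plastic replicate 2) and 0.0903 (without full epithelial replicate 1), with differences of −0.75 to −0.57, so the call needs all 6 arrays. *Hey1*, a related repressor, read 5.98, 5.94 and 5.73 in EpCAM+ plastic cells and 5.84, 5.84 and 6.13 in full epithelial cells, at the background level, with a difference of −0.06 (95% interval −0.35 to 0.24, adjusted p = 0.847) whose sign turned without EpCAM+ plastic replicate 3 or full epithelial replicate 3. The 24 neighbouring genes on the chromosome had median differences of 0.01 for *Notch1*, −0.12 for *Notch3*, 0.05 for *Hes1* and 0.08 for *Rbpj*.

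RBPJ recognises DNA with a core of TGGGAA, so the 250 bases before annotated starts of the members were searched for it on both strands (read as TTCCCA on the printed strand). RefSeq start sites of GRCm38.p6 were at hand for 8 of the 10 members, *Hes1* and *Hey1* not among them. The windows of *Notch1* and *Notch3*, the receptors that moved in opposite directions, and of *Rbpj* and *Lfng*, the members that hold the core, are printed 5′ to 3′ on the strand of the gene, with TGGGAA and TTCCCA in capitals. The called members lie at chr2:26457902-26503822 (*Notch1*), chr17:32120820-32166896 (*Notch3*), chr5:53555779-53657445 (*Rbpj*) and chr16:30065357-30067796 (*Hes1*). The 4 windows lie at chr2:26503823-26504072 (minus strand), chr17:32166891-32167140 (minus), chr5:53590096-53590345 (plus) and chr5:140607091-140607340 (plus).
*Notch1*: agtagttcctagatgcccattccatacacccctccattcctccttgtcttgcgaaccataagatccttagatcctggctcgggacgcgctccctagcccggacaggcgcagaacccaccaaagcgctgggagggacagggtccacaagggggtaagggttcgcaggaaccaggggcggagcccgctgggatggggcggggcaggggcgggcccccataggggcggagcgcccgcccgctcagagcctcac
*Notch3*: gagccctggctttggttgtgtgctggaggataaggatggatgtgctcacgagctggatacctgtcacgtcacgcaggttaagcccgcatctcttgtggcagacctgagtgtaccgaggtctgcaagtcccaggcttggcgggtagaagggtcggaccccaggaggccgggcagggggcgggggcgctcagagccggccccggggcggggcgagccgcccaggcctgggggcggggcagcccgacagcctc
*Rbpj*: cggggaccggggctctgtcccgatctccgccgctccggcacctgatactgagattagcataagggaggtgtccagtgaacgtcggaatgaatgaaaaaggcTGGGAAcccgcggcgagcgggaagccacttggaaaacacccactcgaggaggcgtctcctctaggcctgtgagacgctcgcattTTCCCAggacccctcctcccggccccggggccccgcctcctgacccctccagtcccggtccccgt
*Lfng*: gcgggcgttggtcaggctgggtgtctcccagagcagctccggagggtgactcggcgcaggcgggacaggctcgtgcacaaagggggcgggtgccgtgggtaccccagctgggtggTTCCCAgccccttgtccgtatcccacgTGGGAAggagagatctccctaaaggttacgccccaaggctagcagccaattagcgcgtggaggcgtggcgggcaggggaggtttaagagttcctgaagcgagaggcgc
*Rbpj* held the core on each strand, starting 149 and 65 bases before the start used, and *Lfng* likewise at 108 and 135 bases. The *Rbpj* window is that of 1 of 2 starts at hand, and the other shares the nearer match. Both *Rbpj* windows lie inside the gene as placed above, and the bases before its outermost start at chr5:53555779 were not searched. *Notch1*, *Notch2*, *Notch3*, *Jag1*, *Jag2* and *Dll1* held it 0 times in these windows. Of all 32851 promoter windows of the same length, 21.6% held the core at least once and 2.77% held it 2 or more times. A match describes the letters only.

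The rest of the pathway was read from lists of 77 further genes, of which 69 had a single-gene probe set. In 7 of them at least 1 probe set rose and in 0 any fell, against 6.43% and 2.43% of all 17097 genes (8.86% in either direction). Of 5 other receptors and ligands, 0 passed with limma, and 0 had p under 0.05 before adjustment by the brightest probe set. Of 17 genes of receptor processing 0 passed either, with 1 higher and 0 lower before adjustment. *Notch4* and *Dll4*, the endothelial receptor and ligand, lay below the background level on all arrays. The processing list holds *Adam10* and *Adam17*, the proteases that make the first cut after a ligand binds. It also holds the γ-secretase subunits and the fringes *Mfng* and *Rfng*.

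Notch turnover and antagonism held 14 genes, and 3 of these rose, none fell and the remaining 11 missed the threshold. Their median difference was 0.37 by the brightest probe set, against −0.02 over all genes. *Dtx4*, a Deltex E3 ubiquitin ligase that acts on Notch, read 7.12, 7.50 and 7.15 in EpCAM+ plastic cells and 6.16, 5.73 and 6.20 in full epithelial cells (difference 1.23, standard error 0.17, adjusted p = 0.0135). It was not called without EpCAM+ plastic replicate 1 (adjusted p = 0.0516), and its other probe set did not pass (0.70, adjusted p = 0.0535). *Fbxw7*, which marks the Notch intracellular domain and MYC for degradation, read 6.36, 6.35 and 6.33 in EpCAM+ plastic cells and 5.84, 5.44 and 5.46 in full epithelial cells (difference 0.76, standard error 0.13, adjusted p = 0.0233). Only 1 of those 3 full epithelial arrays was above the background level, so this difference may be understated. The second *Fbxw7* probe set, above that level on all arrays, read 8.35, 7.74 and 7.98 in EpCAM+ plastic cells and 7.23, 7.27 and 6.97 in full epithelial cells and passed as well (0.87, adjusted p = 0.0371). *Numbl*, a relative of the Notch inhibitor Numb, passed (adjusted p = 0.0317) at levels under the background level in both groups, so no fold is given. The first *Fbxw7* probe set and *Numbl* each lost their call when single arrays were left out, *Fbxw7* without either replicate 3, EpCAM+ plastic replicate 1 or full epithelial replicate 2 (adjusted p = 0.0581 to 0.0876) and *Numbl* without any 1 of the 6 (0.0686 to 0.111).

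Of 14 genes of the nuclear complex and its corepressors, *Tle1*, a Groucho corepressor that HES proteins recruit, rose and 13 did not pass. It read 6.98, 7.43 and 6.92 in EpCAM+ plastic cells and 6.43, 6.16 and 6.08 in full epithelial cells, a difference of 0.89 (standard error 0.17, adjusted p = 0.0329), and kept its call only without EpCAM+ plastic replicate 2 among the 6 fits that leave out 1 array (adjusted p = 0.0588 to 0.0938 in the other 5). *Maml1*, a Mastermind coactivator, did not pass.

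Among 19 further targets, 3 rose, none fell and 16 missed the threshold, at a median difference of 0.03. The 3 are genes that many pathways besides Notch control. *Ccnd1*, which encodes cyclin D1, rose with all 3 of its probe sets. Its probe set of smallest p read 8.02, 8.00 and 7.92 in EpCAM+ plastic cells, against 6.54, 6.88 and 6.93 in full epithelial cells (difference 1.20, standard error 0.12, adjusted p = 0.00796), and it passed under all 12 alternative settings. *Nfkb2*, a subunit of NF-κB, read 8.79, 8.23 and 8.75 in EpCAM+ plastic cells and 7.18, 7.02 and 7.56 in full epithelial cells (difference 1.34, adjusted p = 0.0175), and missed the threshold without EpCAM+ plastic replicate 1 or 3 or full epithelial replicate 1 (adjusted p = 0.0589 to 0.0706). *Myc*, a growth regulator, had a difference of 0.70 (adjusted p = 0.0462) and lost its call without any 1 of the 6 arrays (adjusted p = 0.0572 to 0.137). Other targets did not pass. *Nrarp*, a feedback inhibitor of Notch that was named after its values were seen, read 8.48, 8.43 and 7.84 in EpCAM+ plastic cells, against 9.02, 9.07 and 8.68 in full epithelial cells, with no overlap (difference −0.67, 95% interval −1.15 to −0.20, adjusted p = 0.108). With its other, dimmer probe set the groups overlapped (difference −0.61, 95% interval −1.36 to 0.13, adjusted p = 0.327). *Hes5* and *Hes7*, also named after their values were seen, lay below the background level on every array, at adjusted p = 0.0684 and 0.0633. *Hey2* and *Heyl* lay below it as well.

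**Figure D3:**
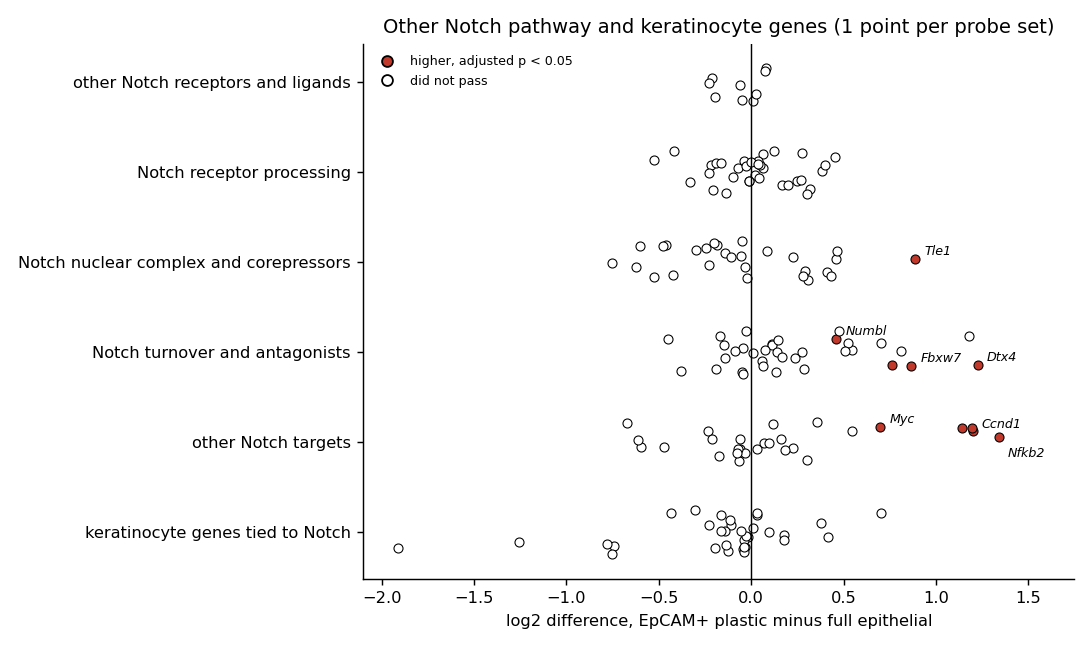
Log2 difference (EpCAM+ plastic minus full epithelial, horizontal axis) of each single-gene probe set of 5 further Notch lists and of a keratinocyte list (rows, with vertical scatter for legibility), filled where the adjusted p was under 0.05. The probe sets that passed belong to 7 named genes, all to the right of 0, and none of the keratinocyte list passed.

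Of 17 keratinocyte genes tied to Notch in the epidermis, 0 passed with limma (2 higher and 2 lower before adjustment by the brightest probe set). The genes of this list given here were picked after their values were seen. The widest differences were those of late differentiation genes, with much spread among the EpCAM+ plastic arrays. *Lor*, which encodes the cornified envelope protein loricrin, read 9.83, 10.43 and 6.62 in EpCAM+ plastic cells and 11.44, 10.10 and 11.07 in full epithelial cells, a difference of −1.91 (95% interval −4.19 to 0.37, adjusted p = 0.318). *Flg*, which encodes filaggrin, read 7.67, 8.93 and 5.79 in EpCAM+ plastic cells and 9.61, 7.58 and 8.96 in full epithelial cells, a difference of −1.26 (95% interval −3.26 to 0.75, adjusted p = 0.461). The groups overlap for both, and EpCAM+ plastic replicate 3 is the lowest array of each. *Ivl*, which encodes involucrin, had differences of −0.43 (adjusted p = 0.462) and −0.78 (adjusted p = 0.251), the second without overlap. The suprabasal keratin *Krt10* read 6.29, 6.84 and 5.52 in EpCAM+ plastic cells and 7.12, 6.89 and 6.87 in full epithelial cells, a difference of −0.74 (adjusted p = 0.230). *Wnt4*, a Wnt ligand, had a difference of −0.76 without overlap with 1 probe set (adjusted p = 0.0626) and of −0.16 with the other (adjusted p = 0.737). *Itgb4*, an integrin subunit of hemidesmosomes, had a difference of 0.71 (adjusted p = 0.154). *Cdkn1a*, the cell cycle inhibitor p21 that Notch induces in keratinocytes, had differences of −0.03 and 0.10, and *Klf4*, a transcription factor of the epidermal barrier, had −0.02 and −0.11. *Krt1*, the partner keratin of *Krt10*, lay below the background level on every array. *Trp63*, the basal factor p63, had differences between −0.12 and 0.42 over 4 probe sets (adjusted p = 0.154 to 0.575). The value of −0.12 came from a probe set below the background level on every array, and the others differed by 0.18, 0.38 and 0.42.

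Within the groups, replicate 2 often stood at an end of the range. EpCAM+ plastic replicate 2 was the lowest of its group and full epithelial replicate 2 the highest of its own for 7 of the 14 probe sets, both of *Notch1*, both of *Jag1*, *Dll1*, 1448957_PM_at of *Rbpj* and 1449943_PM_at of *Lfng*. This order held for 18.5% of all probe sets and 20.3% of those above the background level. Both *Notch3* probe sets ran the other way, with EpCAM+ plastic replicate 2 highest and full epithelial replicate 2 lowest, an order seen in 13.3% of all probe sets and 19.5% of those above the background level. The first order was shared by both probe sets of *Itga6*, the α6-integrin gene, by the brighter *Epcam* probe set and by *Krt5*. It was not shared by the other *Epcam* probe set, *Itgb4*, *Cdh1*, *Ptprc* or any *Trp63* probe set. Both probe sets of the basal keratin *Krt14* ran the other way, as *Notch3* did. Its probe set 1423935_PM_x_at read 11.86, 11.91 and 11.82 in EpCAM+ plastic cells and 12.03, 11.90 and 12.07 in full epithelial cells. *Itga6* and *Epcam* encode the proteins that the sort selects for. The *Itga6* probe set 1422444_PM_at read 9.91, 8.85 and 9.99 in EpCAM+ plastic cells and 8.64, 9.47 and 8.64 in full epithelial cells. The second replicates therefore lie closest to the other group for *Notch1*, *Jag1*, *Dll1*, *Notch3* and *Itga6* alike, and the part of the sort markers in these differences was not tested. This order was noticed in the values and has no test.

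**Figure D4:**
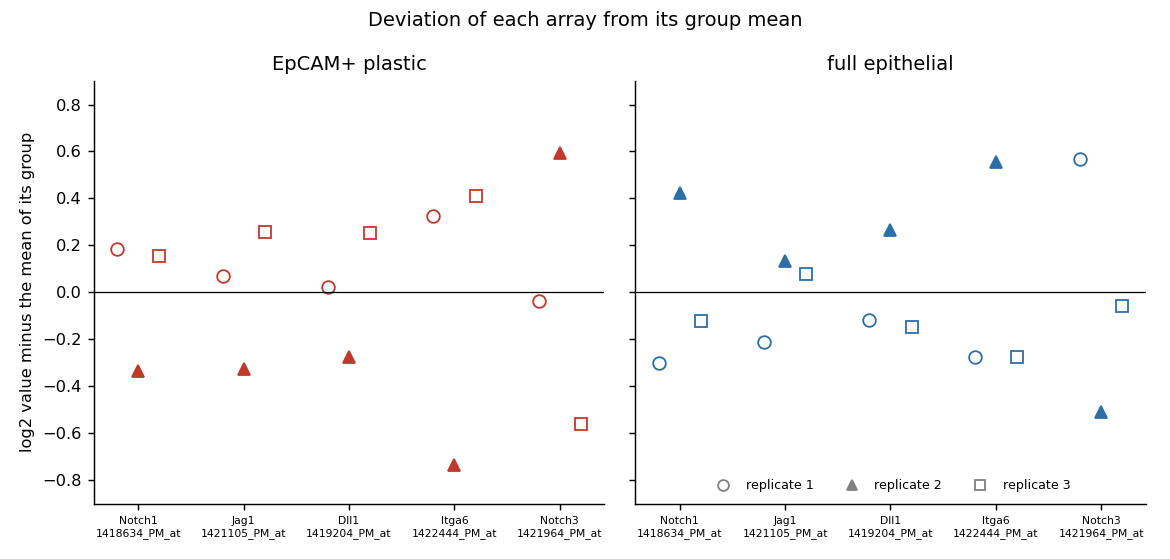
Log2 value minus the mean of its group (vertical axis) for *Notch1*, *Jag1*, *Dll1*, *Itga6* and *Notch3* on each array, with EpCAM+ plastic arrays on the left, full epithelial arrays on the right and filled triangles for replicate 2. Replicate 2 is lowest in EpCAM+ plastic and highest in full epithelial cells for the first 4 genes, and the reverse for *Notch3*.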

How the data were processed

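RNA of sorted cells from 6 mouse tumors was amplified and hybridized to Affymetrix mouse whole-genome expression arrays. The authors deposited log2 values computed by RMA (background correction, normalization between arrays, 1 value per probe set); its version was not found in the material read. A second deposited table was not used, since its 6 value columns carry scan numbers that match no sample label. Groups and replicate numbers came from the sample labels. Precision is limited by having 3 arrays a group.

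The platform annotation gave the gene names: 28898 of 45141 probe sets had 1 gene, 551 had several and 15692 were unlisted. Symbols were updated through a RefSeq gene table (GRCm38.p6) for 28689. Promoter sequences came from RefSeq, same build. limma (version 3.58.1, R 4.3.3) fitted all 45141 probe sets with lmFit and eBayes, with no covariate and Benjamini-Hochberg adjustment. The fit was tested on simulated data. Members and gene lists were chosen with earlier results of these data known. Named beyond the members were genes of the lists with any probe set called, by the probe set of smallest p; other list genes were named after their values were seen. Alternatives were quantile normalization repeated, 75th percentile centring, a filter on dim probe sets, an intensity trend, array quality weights, the replicate number as a block, leaving out each array, and 2 ways to represent a gene.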

Additional observations from a re-analysis of the deposited data

How the results depend on the processing

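Each call rests on 3 arrays a group, and the p-values measure the spread between these tumors. Directions held for the 5 called member probe sets under every alternative run. Signs turned for *Notch2* (−0.050 with the 75th percentile centring, and −0.16 to 0.19 over the fits that omit 1 array) and *Hey1* (−0.10 to 0.042 over the same fits), neither of which was called. The member probe sets that rose numbered 2 in the main analysis, 1 with quantile normalization repeated, 1 with the 75th percentile centring, 4 with array quality weights and 5 with dim probe sets left out. Past both thresholds were 3 in the main analysis and 5 with dim probe sets left out, where fewer probe sets were tested. The cause of the other shifts was not tested. Leaving out 1 array gave 0 to 3 that rose, 0 to 2 that fell, 0 to 4 past both thresholds, 1 to 6 other pathway genes that rose and 576 to 2627 called probe sets of 45141, against 2699 with all arrays. Without EpCAM+ plastic replicate 1 these counts were 0, 0, 0, 1 and 576. The 75th percentile centring moved the median of all probe sets to −0.15, against −0.03, and the share of called probe sets that were higher to 43.1%, against 68.8% (56.5% with quantile normalization repeated).

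Same-numbered arrays of the 2 groups did not deviate together (correlations of −0.18, −0.37 and −0.01 across probe sets, which are not independent), so the numbers were taken as names. With the replicate block, 483 probe sets were called, with 0 member probe sets higher, 0 lower and 0 past both thresholds, and 2 other pathway genes were higher. *Hes5* and *Hes7* were called lower with an intensity trend (adjusted p = 0.0406 and 0.0483) and with the 75th percentile centring (0.0325 and 0.0366), 2 genes in each case, against 0 in the main analysis. *Aph1a* and *Hes7* were called lower without full epithelial replicate 2 (0.0242 and 0.0471), so that omitting 1 array gave 0 to 2. Of all alternative values of the members, 147 kept direction and side of the threshold, 26 lost a call, 9 gained one and 4 turned sign, and of those of other named genes 61 kept both and 45 lost a call.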
